A study of Homo sapiens and Mus musculus with 47 samples.

Results

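The data described here are 6 of the 47 samples of the series, the Chrom-seq libraries made from HEK293T cells, a human embryonic kidney line, with a CBX7 or a dPC reader. The members were chosen by the sample titles, and each reader had 3 libraries. CBX7 here is the chromodomain of the mouse CBX7 protein and dPC that of the Drosophila Polycomb protein. Both groups shared every other step. The cells co-expressed a reader with a peptide tag array and an APEX2 peroxidase that binds the tags for 48 h, received 500 µM biotin-aniline for 30 min and 1 mM H2O2 for 1 min, and polyadenylated RNA was selected from the biotinylated fraction. The constructs were transfected into a cell pool, so the reader was overexpressed, and each readout is an average over that pool.

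H3K27me3, a trimethyl mark on histone H3, is placed by Polycomb repressive complex 2 (PRC2) and marks genes that are held silent, among them many developmental regulators. CBX proteins, the chromatin-binding subunits of PRC1, recognise the mark through a chromodomain, and Polycomb is the fly protein of the same family. In Chrom-seq the peroxidase attaches biotin to RNA close to where the reader sits. A comparison of both readers asks whether domains that recognise the same mark recover the same RNAs. The control libraries made beside CBX7 and dPC were not analysed here, so the comparison gives differences between readers and not enrichment over background.

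Of 57820 genes in the table, 18762 exceeded a summed count of 18 over the 6 libraries and were tested. CBX7 recovered 165 of them at a higher level than dPC, 0.879% of the tested genes, and 67 at a lower level, 0.357%. Together these were 1.24%. The call required both an edgeR adjusted p under 0.05 and a difference of 0.75 or more on the log2 scale, in either direction. With no size limit, 592 genes (3.16%) were higher and 563 (3.0%) lower, 6.16% of the tested genes together. That a gene missed the threshold does not show that both readers recovered it alike. Levels are given as CPM, counts scaled to a common library size. The plot of fold change against level shows both sets over a wide range of levels, and of the fifth of tested genes with the highest counts 4 were higher and 26 lower.

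**Figure D1:**
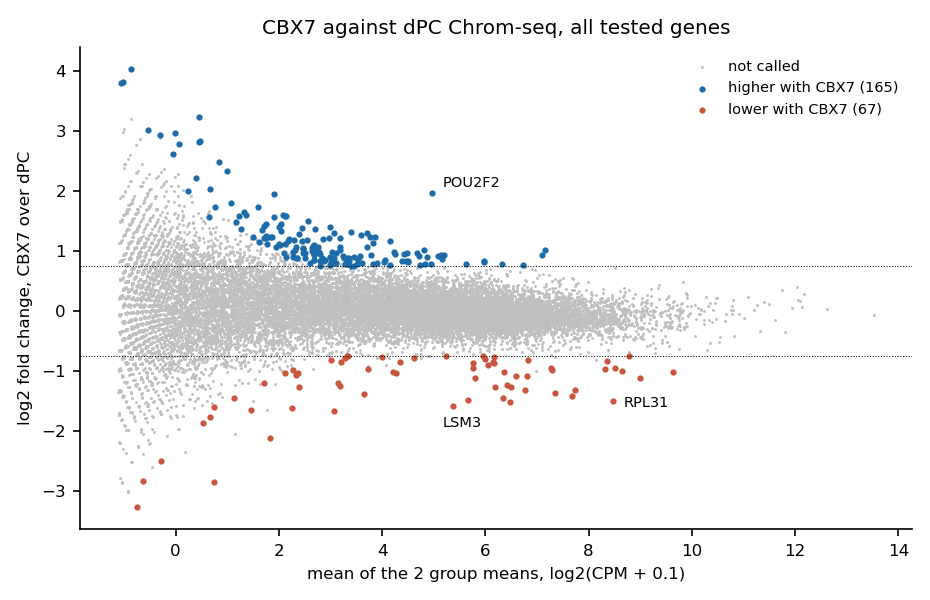
Each point is 1 of the 18762 tested genes, with the mean of both group means on the x axis as log2(CPM + 0.1) and the log2 fold change of CBX7 over dPC on the y axis. Blue points are the 165 genes higher with CBX7, orange points the 67 lower, and dotted lines mark a log2 fold change of 0.75 in either direction.

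The libraries held 7421903 to 8513254 counts with CBX7 and 8717932 to 8967719 with dPC. dPC replicate 2 stood apart from the other dPC libraries. Its chi-square per gene was 10.3 and 10.4 against them, while dPC replicates 1 and 3 gave 5.01 between themselves and the CBX7 pairs 2.75 to 3.47. On the first principal component, 31.9% of the variance, dPC replicate 2 was at 7.39, dPC replicates 1 and 3 at 34.5 and 34.4, and the CBX7 libraries between -26.6 and -23.1. Without dPC replicate 2 the counts were 291 genes higher and 198 lower. Leaving out another library lowered them, to 76 higher and 17 lower without CBX7 replicate 1, 79 and 20 without CBX7 replicate 2, 90 and 23 without CBX7 replicate 3, 59 and 12 without dPC replicate 1, and 90 and 15 without dPC replicate 3. The 8 markers of HEK293T identity were all tested and summed to 525 to 575 CPM with CBX7 and 508 to 534 CPM with dPC. Of 11 markers of other cell types in the table, 5 were tested and 0 called, the list summed to 64.2 to 78.1 CPM with CBX7 and 59.0 to 77.7 CPM with dPC, and MS4A1 (B cells), CEACAM5 (colon) and COL1A2 (fibroblasts) had 0 counts in all 6 libraries.

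**Figure D2:**
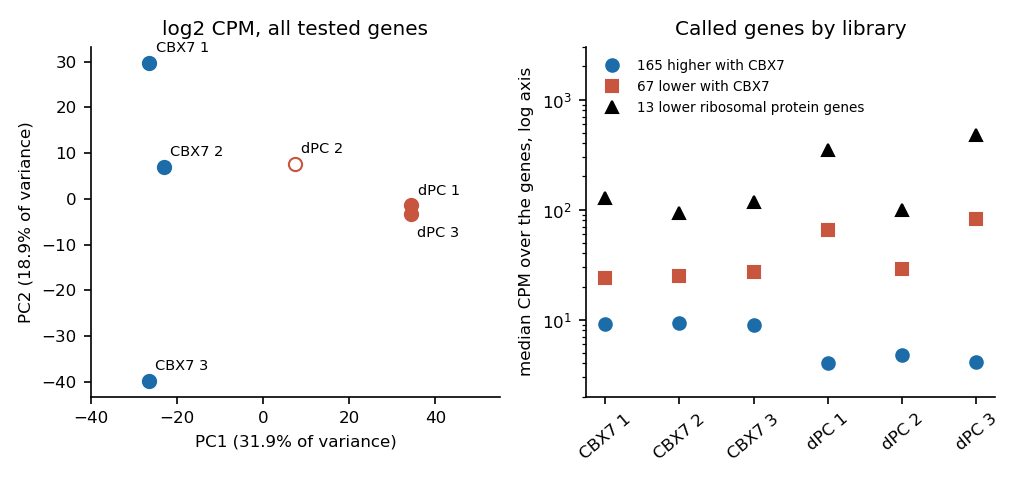
The left panel places the 6 libraries on the first and second principal components of log2 CPM over all tested genes, and the right panel gives, for each library, the median CPM on a log axis over the 165 higher genes, the 67 lower genes and the 13 lower ribosomal protein genes. The open circle is dPC replicate 2, which had a median of 28.9 CPM over the 67 lower genes, against 65.3 and 82.7 CPM in dPC replicates 1 and 3 and 24.0 to 27.2 CPM with CBX7.

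Among protein-coding genes with at least 100 counts per library on average and groups that did not overlap, the largest rise was that of POU2F2 (ENSG00000028277.16, hg19 chromosome 19, 42590263 to 42700737, minus strand), which encodes the octamer-binding transcription factor OCT2 of the B-cell lineage. It had 48.2, 50.6 and 50.1 CPM in the CBX7 libraries and 10.4, 14.6 and 13 CPM in the dPC libraries. All CBX7 libraries were above all dPC libraries, a 3.90-fold difference. On the log2 scale it was 1.96 ± 0.127 (SE; edgeR adjusted p = 9.42e-08), the smallest adjusted p of the table. The fold stayed between 1.84 and 2.08 on the log2 scale under all 15 alternative settings.

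The largest falls by the same criteria were those of LSM3 and MRPS18C. The promoters of a pair of genes that rose and of this pair that fell are printed because Polycomb marks often lie at promoters rich in CG dinucleotides, which are in capitals. The sequences are from RefSeq on GRCh38.p14, a build other than that of the counts, run 5′ to 3′ on the strand of the gene, and span 250 bases before to 50 bases after the annotated start. The table held a promoter under the symbol for 93 of the 165 higher genes and 34 of the 67 lower genes. These promoters had a median of 16 CG for the higher genes and 21 for the lower genes, and the difference was not tested. POU2F2 (chr19:42132397-42132696, minus strand) had 12 CG and MSH4 (chr1:75796632-75796931, plus strand) 12, while LSM3 (chr3:14178567-14178866, plus strand) had 27 and MRPS18C (chr4:83455808-83456107, plus strand) 24. Over the named coding genes with a promoter in the table, the number of CG went from 12 to 43 in 7 rises, with CDH23 at 43 and MMP15 at 39, and from 5 to 27 in 8 falls, with ANKRD1 at 5 and MAGOHB at 6, so the promoters shown do not stand for either group. The median over all 27305 promoters of the table was 14, that over the 11033 tested genes with a promoter 26, and 95.8% of all promoters held at least 1 CG. The count is a description of these letters and not a measurement of the mark.
POU2F2: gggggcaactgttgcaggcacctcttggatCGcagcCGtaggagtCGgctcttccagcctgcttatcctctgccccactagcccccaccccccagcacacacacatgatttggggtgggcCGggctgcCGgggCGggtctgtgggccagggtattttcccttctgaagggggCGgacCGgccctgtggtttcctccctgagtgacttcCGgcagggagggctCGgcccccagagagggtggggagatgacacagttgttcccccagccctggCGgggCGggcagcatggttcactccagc
MSH4: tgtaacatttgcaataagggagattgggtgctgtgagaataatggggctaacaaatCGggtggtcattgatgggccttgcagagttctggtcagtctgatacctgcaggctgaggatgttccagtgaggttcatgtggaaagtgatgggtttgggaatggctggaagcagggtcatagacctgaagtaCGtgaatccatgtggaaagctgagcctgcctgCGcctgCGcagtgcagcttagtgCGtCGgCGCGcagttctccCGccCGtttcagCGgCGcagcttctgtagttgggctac
LSM3: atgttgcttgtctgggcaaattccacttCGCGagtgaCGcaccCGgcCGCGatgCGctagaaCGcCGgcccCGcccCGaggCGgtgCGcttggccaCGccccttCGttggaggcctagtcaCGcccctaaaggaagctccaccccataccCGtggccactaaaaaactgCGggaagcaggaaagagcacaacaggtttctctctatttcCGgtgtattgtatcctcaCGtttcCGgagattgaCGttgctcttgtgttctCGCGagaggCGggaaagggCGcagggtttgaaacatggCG
MRPS18C: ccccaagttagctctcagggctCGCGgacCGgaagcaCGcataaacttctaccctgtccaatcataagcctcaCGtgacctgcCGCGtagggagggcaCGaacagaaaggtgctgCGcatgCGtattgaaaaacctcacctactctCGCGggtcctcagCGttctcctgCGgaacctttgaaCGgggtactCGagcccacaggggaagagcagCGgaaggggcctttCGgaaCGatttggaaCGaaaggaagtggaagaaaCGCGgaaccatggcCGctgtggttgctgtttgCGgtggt

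MSH4 encodes a protein of meiotic recombination. It had 16.8, 17.2 and 21.4 CPM with CBX7 and 8.64, 8.09 and 5.79 CPM with dPC, a log2 fold change of 1.29 ± 0.179 (SE; edgeR adjusted p = 7.64e-04). ANKAR and FAM184B followed with log2 fold changes of 1.23 each. The groups were far apart for both, at 18.4 to 21.9 against 7.58 to 9.42 CPM for ANKAR and 15.9 to 20.8 against 6.32 to 9.35 CPM for FAM184B.

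APC2, a neural relative of the tumour suppressor APC that acts in Wnt signalling, had the most even levels of these genes. Its CPM was 24.6, 24.7 and 24.2 with CBX7 and 10.9, 11.5 and 10.5 with dPC (log2 fold change 1.16, standard error 0.134, edgeR adjusted p = 2.43e-04). SHANK1, a scaffold of the postsynaptic density, had 36.2, 38.9 and 37.3 CPM against 17.99, 21.5 and 15.9 CPM, a 2.03-fold difference. SYT3, a synaptotagmin gene that overlaps SHANK1 on the same strand, was also called, at 44.1 against 23.3 CPM, and was chosen after its values were seen. MMP15, a membrane-bound matrix metalloproteinase, and CDH23, a cadherin of hair cells, completed the list with log2 fold changes of 1.14 and 1.06. All 8 of these genes were called under every alternative setting. In all 165 higher genes the groups did not overlap, against 13.1% of all tested genes with every CBX7 library above every dPC library. The genes were called on the same 6 libraries, so the separation is no independent support for the calls.

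Called genes with much higher counts had smaller folds. SETD1B, which encodes a methyltransferase that acts on histone H3, had 190 CPM with CBX7 and 94.1 CPM with dPC (log2 fold change 1.01, edgeR adjusted p = 5.35e-06). ZBTB7B, a zinc finger repressor of T-cell fate, had 179 and 93.5 CPM, and SAMD1, which binds unmethylated CpG DNA, had 133 and 78.0 CPM. These genes were chosen after their values were seen, for their level.

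The falls had another form. LSM3 (ENSG00000170860.3, hg19 chromosome 3, 14219858 to 14242619), a component of the spliceosomal U6 particle, had 22.4, 21.3 and 18.5 CPM with CBX7 and 70.1, 23.5 and 93.4 CPM with dPC. MRPS18C, a mitochondrial ribosomal protein, had 24.0, 27.9 and 27.2 CPM against 81.8, 32.8 and 108 CPM. In both genes dPC replicate 2 was just above the CBX7 libraries and far below the other dPC libraries. The log2 fold changes were -1.58 with a standard error of 0.299 for LSM3 and -1.49 with 0.262 for MRPS18C, with edgeR adjusted p of 5.84e-03 and 3.56e-03. Without dPC replicate 2 they were -1.98 and -1.85, and the call for LSM3 was lost without CBX7 replicate 1, without dPC replicate 1 and with DESeq2.

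This form was common to the 67 lower genes. The groups overlapped in 30 of them, and in all 30 the overlap came from dPC replicate 2, which lay inside the range of the CBX7 libraries in 21 and below it in 9. Without that library the groups did not overlap in any of the 67. MAGOHB, a core protein of the exon junction complex, was one of those without overlap, at 36.3, 34.5 and 34.7 CPM against 94.4, 43.9 and 91.6 CPM. Its close paralog MAGOH was also called (54.1 against 110 CPM), and reads shared by such near-identical copies could have been split between them. A different arrangement was seen for DNAJB5, a heat shock protein 40 family member, where the dPC libraries were even at 25.5, 24.3 and 24.7 CPM and CBX7 gave 8.90, 12.5 and 15.4 CPM (log2 fold change -1.02, standard error 0.163). ANKRD1, a target of YAP signalling, PRPS1, an enzyme of nucleotide synthesis, and SEC61G, a subunit of the translocon, fell by 0.85, 0.81 and 0.85 on the log2 scale. In each of these 3, dPC replicate 2 was the lowest dPC library.

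**Figure D3:**
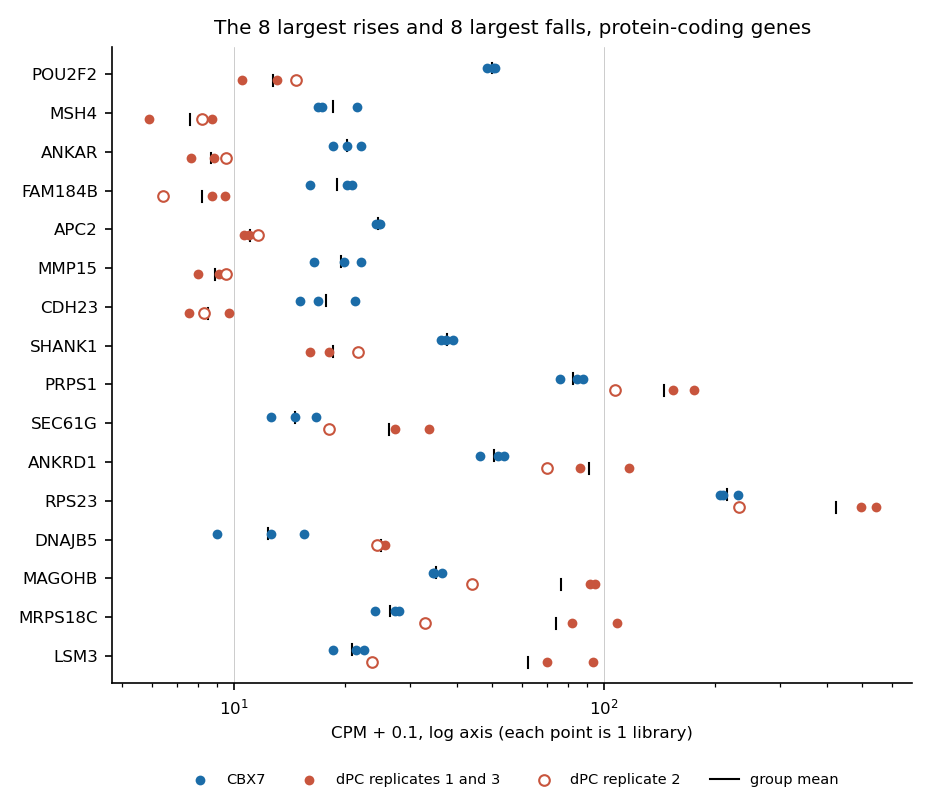
Each point is the CPM + 0.1 of 1 library on a log axis, for called protein-coding genes whose groups did not overlap, the top 8 in each direction by size, with black ticks at the group means. For the rises the groups are far apart, while for LSM3, MRPS18C, MAGOHB and RPS23 the open circle of dPC replicate 2 lies close to the CBX7 libraries.

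Ribosomal protein genes held the largest group among the falls. Of 83 tested genes of cytosolic ribosomal proteins, which are short and highly expressed, 13 were lower with CBX7 and 0 higher. Over all tested genes 0.357% were lower and 0.879% higher. The median log2 fold change of the list was -0.29, against 0.00 for all tested genes. RPL31 (ENSG00000071082.6) had 176, 188 and 190 CPM with CBX7 and 578, 182 and 812 CPM with dPC, so dPC replicate 2 was level with CBX7. RPL14 had 557, 485 and 546 CPM against 1154, 548 and 1511 CPM, and RPS23, the member with the smallest adjusted p and groups that just did not overlap, had 230, 209 and 206 CPM against 494, 232 and 543 CPM (log2 fold change -0.97, edgeR adjusted p = 7.65e-03). The most abundant member over the 6 libraries, RPL4, had 1545 ± 74.7 CPM with CBX7 and 2064 ± 447 CPM with dPC (SD, n = 3 each), and its log2 fold change of -0.42 was under the threshold (edgeR adjusted p = 0.0358).

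The count of lower ribosomal protein genes depended on the libraries and the tool. It was 28 without dPC replicate 2, 0 without CBX7 replicate 1, 2 without CBX7 replicate 2, 3 without CBX7 replicate 3, 0 without dPC replicate 1, 1 without dPC replicate 3, and 0 with DESeq2. Summed over all 89 genes of the list, tested or not, dPC replicates 1 and 3 gave 45830 and 45140 CPM. By the same sum dPC replicate 2 gave 29290 CPM, and the CBX7 libraries gave 30680 to 35690 CPM. As a share of all counts the genes of the list made up 3.43% ± 0.257 with CBX7 and 3.92% ± 0.842 with dPC (SD, n = 3 each), which an exact permutation test over the libraries, two-sided, did not separate (p = 0.4). Many pseudogenes resemble these genes, so their counts are uncertain.

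By symbol, 63 tested nuclear genes encode subunits of the respiratory chain or of ATP synthase, a group chosen after its values were seen. Of these, 7 were lower with CBX7 (ATP5J, COX6C, COX7C, NDUFB1, NDUFS5, UQCR10 and UQCRH), against 0.357% of all tested genes, 0 higher, and 5 of the 63 had a fold change above 0. NDUFS5 had 45.9 CPM with CBX7 and 132 CPM with dPC, and COX7C 121 and 303 CPM. The groups overlapped through dPC replicate 2 in all of the 7 but COX6C. The mitochondrially encoded partners of these proteins did not follow, since 0 of 13 mRNAs were called and 10 had a positive fold change, with a median log2 fold change of 0.12. MT-CO1 had a log2 fold change of -0.07 (edgeR adjusted p = 0.749).

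The called groups differed in the kind of gene. The higher genes had a median span of 28.5 kb, close to the 27.7 kb of all tested genes, while that of the lower genes was 8.32 kb. For the longest annotated transcript the medians were 3.15 kb, 3.31 kb and 1.40 kb for higher, all tested and lower genes. The GC content of that transcript was 54.7% in the higher genes, 48.5% in all tested genes and 46.9% in the lower genes. The share of tested genes called higher went from 0.55% in the fifth with the lowest transcript GC content to 1.68% in the fifth with the highest. After the trend with the GC content of the gene span was removed from each library, 147 genes were higher, of which 140 were among the 165, and 67 were lower, of which 58 were among the 67. Level differed as well, with a median of 56.7 counts per library for higher genes, 134 for all tested and 350 for lower genes.

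RNA-seq libraries of the same cell line, labelled CBX7 and Control, gave levels without biotin selection and were compared as a description only. In the Control libraries the median was 2.59 CPM for the genes higher with CBX7 in Chrom-seq, 39.0 CPM for the lower genes and 14.3 CPM for all tested genes. Of the 165 higher genes, 73 (44.2%) also had every CBX7 RNA-seq library above every Control library, against 20.0% of all tested genes, and 24 (14.5%) had the reverse, against 21.6%. Of the 67 lower genes, 9 (13.4%) were above the Control in RNA-seq and 2 (2.99%) below. RNA-seq with dPC was not analysed here, so these values show how RNA levels with the CBX7 construct stood against a control and not against dPC. The paper sets the transcriptome of cells with the CBX7 reader against untreated HEK293T cells, so transfection may differ along with the reader.

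Named genes gave the same picture in part. POU2F2 was at 3.49 to 3.99 CPM in Control RNA-seq and 9.86 to 16.2 CPM in CBX7 RNA-seq, and FAM184B went from 0.498 to 1.35 CPM to 12.2 to 14.3 CPM. MSH4, ANKAR and APC2 were also higher in each CBX7 RNA-seq library than in each Control library. MMP15 and CDH23 were lower there, at 15.1 to 20.0 against 21.4 to 27.6 CPM and at 11.2 to 13.8 against 15.6 to 17.8 CPM. SHANK1 overlapped, at 17.7 to 26.5 CPM with CBX7 and 15.1 to 19.5 CPM in the Control. The part of RNA abundance in the Chrom-seq differences was not tested.

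The gene of the reader itself gave no difference that passed the test. CBX7 (ENSG00000100307.8, hg19 chromosome 22, 39516172 to 39548679) had 11.5, 13.3 and 13.4 CPM in the CBX7 libraries and 7.69, 13.8 and 10.1 CPM in the dPC libraries, which overlapped (log2 fold change 0.27, edgeR adjusted p = 0.458). In RNA-seq it was at 39.5 to 44.1 CPM with CBX7 and 14.8 to 18.5 CPM in the Control. The reader is a mouse sequence and only reads that aligned to the human gene were counted, so this level is no measure of the construct.

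The study discusses 10 noncoding RNAs in its work on H3K27me3, all of which were tested here, and 0 were called. H19, NEAT1, MALAT1, TINCR and SOX2-OT were known from earlier work and named as recovered in Chrom-seq, BCYRN1 served as a negative control in an antibody assay, and the other 4 were picked from the Chrom-seq data. The choice rests in part on these samples, so their levels are no independent evidence of a link to the mark. With no size limit, 4 were higher with CBX7 and 1 lower at an edgeR adjusted p under 0.05, against 3.16% and 3.0% of all tested genes. Without CBX7 replicate 1, 2 or 3, or without dPC replicate 1 or 3, the count of higher RNAs was 1 in each case, and without dPC replicate 2 it was 4. MALAT1, an abundant RNA of nuclear speckles, had 4042, 4023 and 3501 CPM with CBX7 and 2541, 3426 and 3145 CPM with dPC. NEAT1, the scaffold of paraspeckles, had 1114, 972 and 1078 CPM against 683, 733 and 844 CPM, so the groups did not overlap for either RNA. Their log2 fold changes were 0.34 (edgeR adjusted p = 0.0362) and 0.49 (4.59e-03).

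SETD5-AS1 had 77.9, 91.6 and 85.4 CPM with CBX7 and 55.05, 68.7 and 53.6 CPM with dPC (log2 fold change 0.52, standard error 0.107, edgeR adjusted p = 9.46e-03). Its span overlaps SETD5 and THUMPD3 on the opposite strand and SRGAP3 and RP11-380O24.1 on its own, so reads of these genes may have entered its count. LINC00641 had 83.5, 101 and 79.3 CPM against 59.7, 79.6 and 58.9 CPM, and its groups overlapped by a narrow margin. H19, the imprinted fetal RNA, went the other way with 40.2, 51.3 and 47.3 CPM against 56.9, 76.6 and 67.2 CPM (log2 fold change -0.53, edgeR adjusted p = 0.0138). It did not pass that adjusted p without CBX7 replicate 1, CBX7 replicate 3 or dPC replicate 3, where 0 RNAs of the list were lower. All of these folds were smaller than the threshold of 0.75.

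The other 5 differed by less than the spread of the libraries could resolve. TINCR had 10.5, 8.49 and 11.96 CPM with CBX7 and 11.96, 10.97 and 9.22 CPM with dPC. Differences for BCYRN1, LINC00893 and AC005943.5 were 0.20, 0.22 and 0.39 on the log2 scale, with standard errors of 0.250, 0.163 and 0.313. SOX2-OT was the least abundant, at 1.98, 4.36 and 3.19 CPM against 2.25, 1.88 and 1.18 CPM, and its log2 fold change of 0.84 had a standard error of 0.380 (edgeR adjusted p = 0.205). For the other silencing mark, H3K9me3, the study names H19, MALAT1 and 3 further RNAs. These 3 overlapped between the readers, with log2 fold changes of -0.12 for LINC00662, 0.06 for AC004158.2 and 0.22 for RP11-500G22.2.

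**Figure D4:**
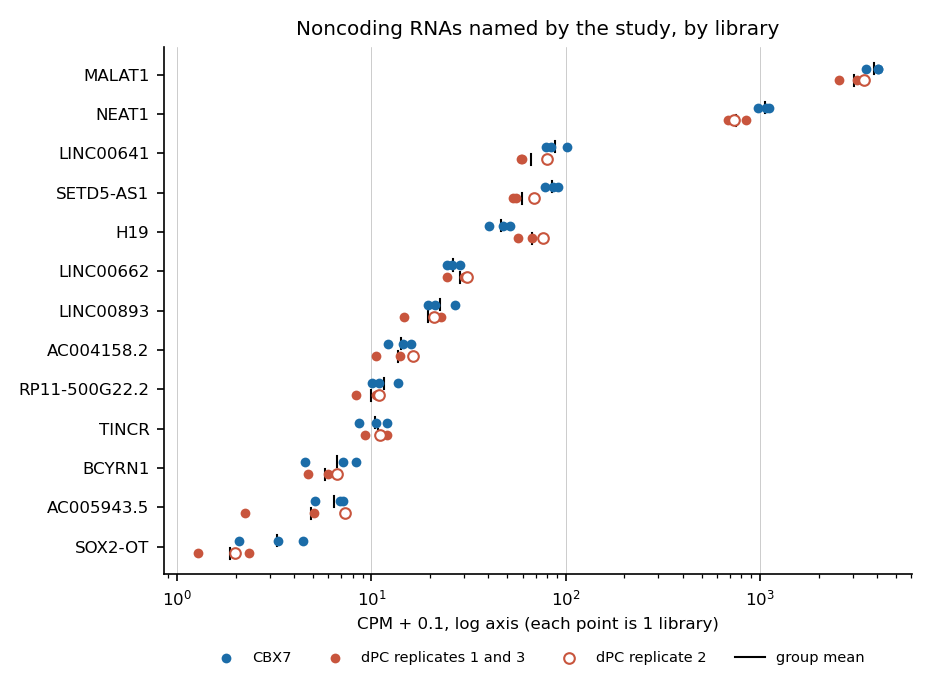
Each point is the CPM + 0.1 of 1 library on a log axis for the 13 noncoding RNAs that the study names, ordered by level, with black ticks at the group means. NEAT1, MALAT1 and SETD5-AS1 have all CBX7 libraries above all dPC libraries, H19 has the reverse, and the other groups overlap.

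Noncoding genes took a slightly larger share of the counts with CBX7. Outside the mitochondrial genome they made up 3.68%, 3.70% and 3.55% of the counts of the CBX7 libraries and 3.06%, 3.49% and 3.38% of those of the dPC libraries. The groups did not overlap, and an exact permutation test, two-sided, gave p = 0.1, the smallest that 3 against 3 libraries allow (0.2 after adjustment over 6 gene classes). LincRNA genes gave 1.49% ± 0.0720 and 1.28% ± 0.138 (SD, n = 3 each; exact permutation p = 0.1), and their median log2 fold change over 1278 tested genes was 0.13. MALAT1 and NEAT1 are among them, with means of 3855 and 1055 CPM with CBX7 and 3037 and 753 CPM with dPC. These RNAs held a large part of the lincRNA difference in share. Mitochondrially encoded RNAs overlapped between the groups, at 4.69% to 5.17% with CBX7 and 3.67% to 4.86% with dPC (exact permutation p = 0.5). Despite the larger share, noncoding genes were 23.6% of the higher genes, 23.9% of the lower genes and 23.0% of all tested genes.

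Of 1839 tested genes annotated as antisense, 20 were higher (1.09%) and 7 lower (0.381%), close to the 0.879% and 0.357% of all tested genes. The largest rises among noncoding genes that averaged 30 or more counts per library were low in level. AC007563.5 had 4.94, 8.26 and 5.84 CPM with CBX7 and 2.01, 2.55 and 1.77 CPM with dPC. CTB-119C2.1 had 9.64, 10.3 and 14.5 CPM against 4.38, 4.88 and 3.66 CPM, or 1.40 on the log2 scale (edgeR adjusted p = 2.02e-03). RP11-54A4.2 and RP4-734G22.3 rose by 1.49 and 1.18 on the log2 scale. For RP11-797M17.1 the spread within dPC was wide, at 3.43, 4.99 and 0.473 CPM, and its call was kept in 7 of 15 alternative settings. A lincRNA gene, CTD-2568A17.1, rose by 1.19.

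Most coding genes on the opposite strand were not called. Of the 20 higher antisense genes, 18 overlapped a tested protein-coding gene, and in 2 that gene was called higher as well. Over all tested genes 0.879% were higher. The 2 pairs were RP5-1029K10.2 with NGFR, a neurotrophin receptor (log2 fold change 0.96, 33.8 against 17.4 CPM), and CTD-2020K17.1 with FMNL1, a formin (0.79). Of 19 coding partners of the higher genes, 14 had a positive fold change, with a median of 0.125 on the log2 scale. Of 7 coding partners of the lower antisense genes, 0 were called and 1 had a positive fold change, with a median of -0.381. IGFBP5, across from AC007563.5, had a log2 fold change of 0.13 with a standard error of 0.0948. NFE2L3, across from CTB-119C2.1, had 0.25 and CASZ1, across from RP4-734G22.3, 0.58. The counting is not stated to use strand, so reads of a gene and its antisense partner cannot be told apart in this table.

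Among noncoding falls, RP11-296I10.3, an antisense gene on chromosome 16, had 2.84, 5.51 and 3.45 CPM with CBX7 and 13.02, 10.3 and 14.7 CPM with dPC. Its log2 fold change of -1.67 had a standard error of 0.238 (edgeR adjusted p = 8.58e-04), and here dPC replicate 2 was with its group. PDPR on the opposite strand had a log2 fold change of -0.07. RP11-544A12.4, which lies across from the nucleoporin gene NUP214, had 7.66, 11.02 and 7.84 CPM against 17.3, 14.9 and 20.2 CPM, while NUP214 itself had -0.48 (edgeR adjusted p = 3.59e-03). RP5-1024G6.2, across from CPT2, fell by 0.85, and ZNF582-AS1, a lincRNA gene that overlaps ZNF583, by 1.20. The pseudogenes RP11-122C9.1, MST1P2 and RPL7AP6 fell by 0.91, 1.07 and 1.27, and their counts are uncertain because pseudogenes can share reads with their parent genes.

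Lists of genes known as Polycomb targets gave 1 call. Of 50 tested developmental transcription factors, 1 was called higher with CBX7 and 0 lower, against 0.879% and 0.357% of all tested genes. The count was 0 with DESeq2 and in each setting that left out a library other than dPC replicate 2. With no size limit 7 were higher, against 3.16% of all tested genes, and 0 lower. That count was 1 without CBX7 replicate 1, 3 without CBX7 replicate 2, 0 without CBX7 replicate 3, 1 without dPC replicate 1 and 0 without dPC replicate 3. In all, 39 of the 50 had a positive fold change, with a median of 0.22 on the log2 scale. GATA2, the most abundant, had 159 ± 12.1 CPM with CBX7 and 121 ± 3.36 CPM with dPC (SD, n = 3 each; log2 fold change 0.40, edgeR adjusted p = 0.0132). NKX6-1 and DLX1 had log2 fold changes of 0.63 and 0.61. After the GC trend was removed, 4 were higher with no size limit and the median was 0.15.

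Of 24 tested rows for HOX genes, the homeobox clusters of body patterning, 0 were called. With no size limit 3 were higher with CBX7 and 0 lower, against 3.16% and 3.0% of all tested genes. These were HOXC4, HOXA3 and HOXD8 (log2 fold changes 0.55, 0.48 and 0.72). In each setting that left out a library, the count of higher genes was 1, except for 5 without dPC replicate 2. HOXD10, the most abundant, had 204 CPM with CBX7 and 198 CPM with dPC. The median of the list was 0.23, against 0.00 for all tested genes.

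No gene of the Polycomb machinery passed the threshold. Of 11 PRC2 genes 0 were called, with a median log2 fold change of 0.02 and a range of -0.24 to 0.37, and RBBP7, the most abundant, had 392 CPM with CBX7 and 433 CPM with dPC. Of 19 PRC1 genes 0 were called. With no size limit 2 were higher, CBX6 and CBX8, both chromodomain subunits (0.30 and 0.35), against 3.16% of all tested genes. That count was 0 with the GC trend removed and in each setting that left out a library, except for 4 without dPC replicate 2. BCOR, the most abundant, had 320 CPM with CBX7 and 284 CPM with dPC (edgeR adjusted p = 0.259). Of 10 genes for H3K9 methylation and its HP1 readers 0 were called, and SETDB1, a methyltransferase, had a log2 fold change of -0.45 (edgeR adjusted p = 0.0227), while the list had 0 lower genes in each setting that left out a library, except for 3 without dPC replicate 2.

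**Figure D5:**
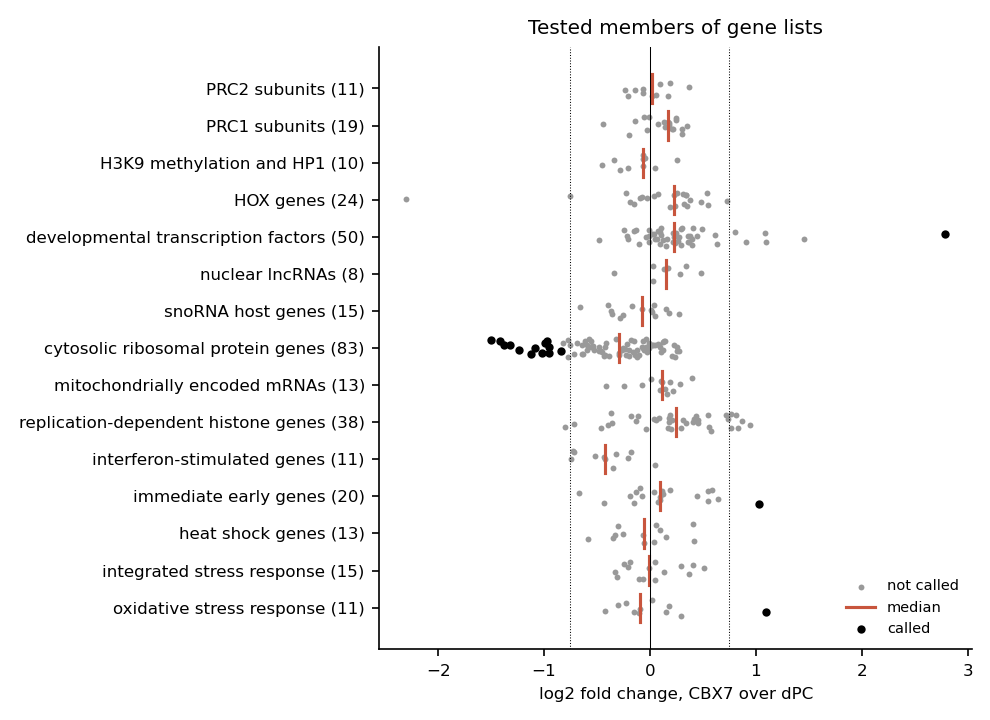
Each point is the log2 fold change of CBX7 over dPC of 1 tested member of a list, with the number of tested members in parentheses, black points for called members, orange bars for list medians and dotted lines at a log2 fold change of 0.75 in either direction. The 13 called ribosomal protein genes lie at the left, and the developmental transcription factors have a median of 0.22 with 1 called member.

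Stress lists gave few calls, beside 0.879% of all tested genes called higher and 0.357% called lower. EGR2, an immediate early transcription factor, was called higher, at 8.28, 5.28 and 8.50 CPM against 3.67, 4.32 and 2.72 CPM, 1 of 20 immediate early genes, and GADD45B, which takes part in growth arrest, had -0.67 on the log2 scale (edgeR adjusted p = 2.28e-03). OSGIN1, an oxidative stress target, was called higher (1.09), 1 of 11 genes of that list. The call of OSGIN1 was lost in each setting that left out a library other than dPC replicate 2, and that of EGR2 without CBX7 replicate 1 or 3 or dPC replicate 1 or 3. Heat shock genes had 0 calls of 13, although the mitochondrial chaperone HSPD1 had -0.58 (edgeR adjusted p = 2.10e-03), as did 0 of 15 genes of the integrated stress response. Of 11 interferon-stimulated genes 0 were called, 1 had a positive fold change and the median was -0.42. IRF7, a transcription factor of the interferon response, had -0.72 (edgeR adjusted p = 0.0221). With no size limit 2 members were lower, against 3.0% of all tested genes. That count was 0 without CBX7 replicate 1, CBX7 replicate 2 or dPC replicate 1, and 1 without CBX7 replicate 3.

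The remaining lists gave few calls, beside 0.879% of all tested genes called higher and 0.357% called lower. Of 191 tested zinc finger genes on chromosome 19, 1 was called, ZNF20, at 2.60, 4.02 and 3.45 CPM with CBX7 against 0.710, 1.55 and 1.06 CPM with dPC. The call of ZNF20 was kept in 9 of 15 alternative settings and was lost with DESeq2 and without each library other than dPC replicate 2. Genes named AS1 gave 1 rise, RBPMS-AS1 (0.78), and the fall of ZNF582-AS1 among 368 tested. RBPMS-AS1 was not called with the GC trend removed or without CBX7 replicate 1 or dPC replicate 3, and the call of ZNF582-AS1 was lost without each library other than dPC replicate 2. Replication-dependent histone genes gave 0 calls of 38, snoRNA host genes 0 of 15 and mitochondrial rRNAs 0 of 2. Nuclear lncRNA genes gave 0 calls of 8 tested. MT-RNR2, the larger mitochondrial rRNA, had 6367 ± 588 CPM with CBX7 and 6228 ± 249 CPM with dPC (SD, n = 3 each), and SNHG1, the most abundant snoRNA host gene, 154 ± 15.9 and 128 ± 29.3 CPM.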

How the data were processed

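The authors deposited unnormalized counts of reads for each gene. From the study's methods and the submitters' processing notes, reads were checked with FastQC 0.11.8, trimmed with fastp 0.23.1, aligned to hg19 with HISAT2 2.1.0 and counted with featureCounts 2.0.1 over GENCODE genes. Duplicate removal and the counter's settings for strand and shared reads were not stated. Gene length equalled the full span for all 57820 genes, so intronic reads may have entered the counts. The file stacks 2 tables. The CBX7 and dPC columns are in the first, which names its genes, and 6 of its columns match no listed sample and were not used. The second table, with TAF3 libraries, has no gene names. It was given those of the first by row order, after its libraries correlated with RNA-seq at 0.942 to 0.968 (0.122 to 0.130 with rows shifted by 1), and it served only in the fit of 12 libraries. Each table's values were whole and none was negative, and no replicate pair was identical.

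Differences were tested in edgeR 4.0.16 (R 4.3.3) by quasi-likelihood, with TMM normalization and Benjamini-Hochberg adjustment over 18762 genes with a summed count over 18. Thresholds were those of the study. CPM are counts scaled by TMM library sizes, and RNA-seq levels were scaled among their own libraries. Each standard error was derived from the F statistic. A simulation that shifted 100 genes by 1 (log2) and 100 more by 2 gave recoveries of 94% and 100%, and 2 unchanged genes were called among 18439 run. Shifted genes were drawn only from genes above a minimum mean count, and the simulated libraries had no shared effect such as that of dPC replicate 2. The recoveries therefore do not carry over to genes of few counts or to the spread of the real libraries. The study calls the replicates independent but neither it nor the labels say that they were separate cultures, so p-values measure the spread between these libraries, which may be technical. PCR reads are not independent molecules.

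The genes named were CBX7, 13 noncoding RNAs the study names, the 8 largest rises and 8 largest falls of called protein-coding genes with groups that did not overlap and a mean of 100 counts, 6 and 6 of other types with a mean of 30, and in each list the called members (at most 4) and the most abundant member. A few genes that this rule names are not reported here. Members of lists that passed the adjusted p with no size limit, coding partners of antisense genes and genes so marked in the text were picked with their values in view. The members and lists were chosen with earlier results of these data known. Alternatives were DESeq2 1.42.0, its size factors within edgeR, scaling by library size only, a fit of unfiltered genes, filterByExpr, all 12 HEK293T Chrom-seq libraries in one fit, the replicate number as a block and each library left out. Removal of the GC trend, alone and with the block, was chosen after seeing the data.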

Additional observations from a re-analysis of the deposited data

How the results depend on the processing

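Of the alternatives, DESeq2 gave 133 higher and 27 lower genes and left the adjusted p of 5093 genes undefined. No filter gave 212 and 115, and one fit over 12 libraries 238 and 108. Library size alone gave 219 and 60. With single libraries left out, the counts ran from 59 to 291 for higher genes, from 12 to 198 for lower genes and from 0 to 28 for lower ribosomal protein genes, for which DESeq2 gave 0. The difference in percent of counts ran from 0.101 to 0.697 for mitochondrially encoded RNAs, from -0.972 to -0.225 for ribosomal protein genes, from 0.207 to 0.425 for noncoding genes, from 0.135 to 0.270 for lincRNA, from 0.0409 to 0.0801 for antisense and from 0.00102 to 0.00293 for histone genes. The cause was not tested. With the replicate number as a block, 184 genes were higher and 71 lower, and with the GC trend also removed 178 and 77. Deviations of libraries with the same number correlated at 0.131, 0.220 and 0.011, and CBX7 replicate 3 correlated best with dPC replicate 1 (0.086), so the numbers were not taken to pair libraries.

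Values near 0 changed sign without moving a call. Without CBX7 replicate 1, NEFM had a log2 fold change of -0.005, COL1A1 -0.078 and HOXD10 -0.026. Without CBX7 replicate 2, MT-RNR2 had -0.043, TINCR 0.066 and AC004158.2 -0.030. Without dPC replicate 1, MT-RNR2 had -0.002, TINCR 0.024 and AC004158.2 -0.096. Without dPC replicate 3, HSP90AA1 had -0.076, COL1A1 -0.052 and MT-CO1 0.088. COL1A1 had -0.080 with the GC trend removed, with or without the block. Without dPC replicate 2, HSP90AA1 had 0.169, COL1A1 0.115, HOXD10 0.110 and AC004158.2 0.218, and MT-CO1 had -0.206 without dPC replicate 1 and TINCR -0.177 without CBX7 replicate 3. With 3 libraries per group, genes of few counts such as SOX2-OT could not be measured closely.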
